A study of Mus musculus with 5 samples.

Results

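Egr1, Egr2, Egr3, Egr4, Nr4a1, Nr4a2, Nr4a3, Arc, Npas4 and Ier2 are genes that neurons switch on within minutes of electrical activity, and they were followed here in mouse glioma and in normal mouse brain. They were found as the array probes whose RefSeq accession maps to 1 of these symbols. All 10 genes were found, on 11 probes, among 21150 genes named on the array, and all 10 were among the 16884 genes tested. Nr4a2 had 2 probes and each other gene had 1.

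The study measured total RNA of 3 gliomas and of 2 normal brain samples on single-colour Agilent mouse arrays, 1 array per sample, all taken at postnatal day 150. The gliomas are labelled as brain tumour from a model based on mosaic analysis with double markers (MADM), in which recombination between paired chromosomes makes single dividing cells lose a gene and take on a colour. The labels do not name the mutated genes, the Cre driver, the strain, the sex or the brain region, and they do not say whether samples came from separate animals. The p-values therefore measure the spread between these arrays, which may be technical in part.

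Immediate-early genes need no new protein to be transcribed. Calcium entry through synaptic receptors and channels activates kinases, which act on the factors CREB, SRF with its Elk partners, and MEF2 already bound at the promoters of these genes. Most of the products are transcription factors that pass the signal on to later genes, whereas Arc acts at the synapse itself. Several of these genes are not neuronal only: growth factors, stress and inflammatory signals also induce Egr1, Nr4a1 and Ier2 in many cell types, glia and tumour cells among them.

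The promoters of 6 of the 10 genes were listed in the supplied RefSeq table for GRCm38.p6, in 10 windows, 5 of which belong to Egr2 and in part overlap. The 250 bases before the start were searched on both strands for TGACG, the first 5 bases of the CREB element TGACGTCA. TGACG was found in 8 of the 10 windows and in at least 1 window of each of the 6 genes, against 5836 of all 32851 windows of that length in the table (17.8%). The whole element TGACGTCA, which contains TGACG, was in none of the 10 and in 1.55% of all windows. The CArG box, the SRF element, was in 4 windows, all of Egr2, against 1.47% of all windows. Such matches are a description of letters in a window and not of binding. Printed here are the windows of Egr4 and Nr4a2, 2 genes that were lower in glioma, and of Nr4a1 and Npas4, 2 that did not pass. Since each of the 6 genes carries TGACG, any choice of them would hold it. A link between these letters and the changes was not tested. Capitals mark TGACG or its reverse complement CGTCA, which occur 2 times for Egr4, 4 times for Nr4a2, 4 times for Nr4a1 and 2 times for Npas4. The windows are chr6:85513590-85513839 on the minus strand for Egr4, chr2:57124004-57124253 on the minus strand for Nr4a2, chr15:101266596-101266845 on the plus strand for Nr4a1 and chr19:4989972-4990221 on the minus strand for Npas4, each written from 5′ to 3′ along its gene.
Egr4: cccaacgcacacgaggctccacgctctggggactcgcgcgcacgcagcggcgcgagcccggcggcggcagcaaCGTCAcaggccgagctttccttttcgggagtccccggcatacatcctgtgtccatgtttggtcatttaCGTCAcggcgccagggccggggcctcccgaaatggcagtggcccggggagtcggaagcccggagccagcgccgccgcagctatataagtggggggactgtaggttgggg
Nr4a2: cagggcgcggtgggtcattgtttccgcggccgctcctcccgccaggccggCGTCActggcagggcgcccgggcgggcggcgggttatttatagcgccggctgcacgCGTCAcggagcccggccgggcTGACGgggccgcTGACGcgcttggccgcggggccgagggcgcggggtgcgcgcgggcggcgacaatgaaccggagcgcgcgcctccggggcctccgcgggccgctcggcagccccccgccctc
Nr4a1: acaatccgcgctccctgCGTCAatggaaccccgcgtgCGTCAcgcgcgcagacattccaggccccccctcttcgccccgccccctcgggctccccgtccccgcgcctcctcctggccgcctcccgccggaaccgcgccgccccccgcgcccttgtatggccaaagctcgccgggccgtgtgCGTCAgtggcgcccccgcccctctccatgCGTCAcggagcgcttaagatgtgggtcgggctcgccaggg
Npas4: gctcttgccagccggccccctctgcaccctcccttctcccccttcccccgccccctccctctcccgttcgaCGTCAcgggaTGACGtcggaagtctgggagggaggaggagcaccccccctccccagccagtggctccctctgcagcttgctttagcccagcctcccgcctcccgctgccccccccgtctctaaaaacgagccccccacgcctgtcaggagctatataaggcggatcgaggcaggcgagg

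The arrays carried 55681 probes other than controls, and between 61.5% and 70.3% of their spots were well above background on each array, with none saturated. The labels' tissue types were borne out by marker lists. All 15 neuron markers were lower in glioma, 8 of 9 oligodendrocyte progenitor markers and 8 of 8 markers of dividing cells were higher, and no marker of these lists was called in the other direction. The normal brain arrays lay in a different row of the slide from the gliomas, so slide row and group cannot be told apart. Glioma 3 had almost no signal for the Y-linked Ddx3y, at a log2 level of -7.85 against 0.46 to 1.45 on the other 4 arrays. Eif2s3y, also Y-linked, was at -7.58 there against -0.11 to 2.71 elsewhere. Whether this array differs in sex or its tumour lost the Y chromosome was not tested.

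Arc, Nr4a2 and Egr4 were lower in glioma at an adjusted p under 0.05. They are 3 of the 8 genes detected on all 5 arrays, and none of the 8 was higher. Nr4a3 and Egr3 also passed, but no glioma detected them and they entered the test through normal brain alone, so for them only a bound is given. The change of the other 5 genes did not pass. Changes are given as log2 of glioma over normal brain after each array was set to its own 75th percentile, with the standard error (SE) of the fit over 3 and 2 arrays. Adjusted p-values are from limma with Benjamini-Hochberg adjustment over all 16884 genes unless stated otherwise. With the test limited to the 14854 genes detected on all arrays, 29.5% were called lower and 23.9% higher, and the same count of 3 of 8 was called lower. Among all genes tested, 27.8% were called lower and 23.7% higher, and 51.4% in either direction, so 5 of 10 genes called in either direction is near the background. The median log2 change of the 10 genes was -2.13, and that of all genes tested was -0.05. The former depends on the dim genes, since it was -0.996 with another background correction (normexp) and -1.66 over the 8 genes detected on all arrays. Without glioma 3 it was -1.44. Gliomas and normal brain were fully separated, with no shared range of values, for 6 of the 10 genes, against 74.1% of all genes. Nr4a3 and Egr3 are among these. In 5 of the 6 the gliomas were lower (38.8% of all genes) and in 1 they were higher (35.2%).

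**Figure D1:**
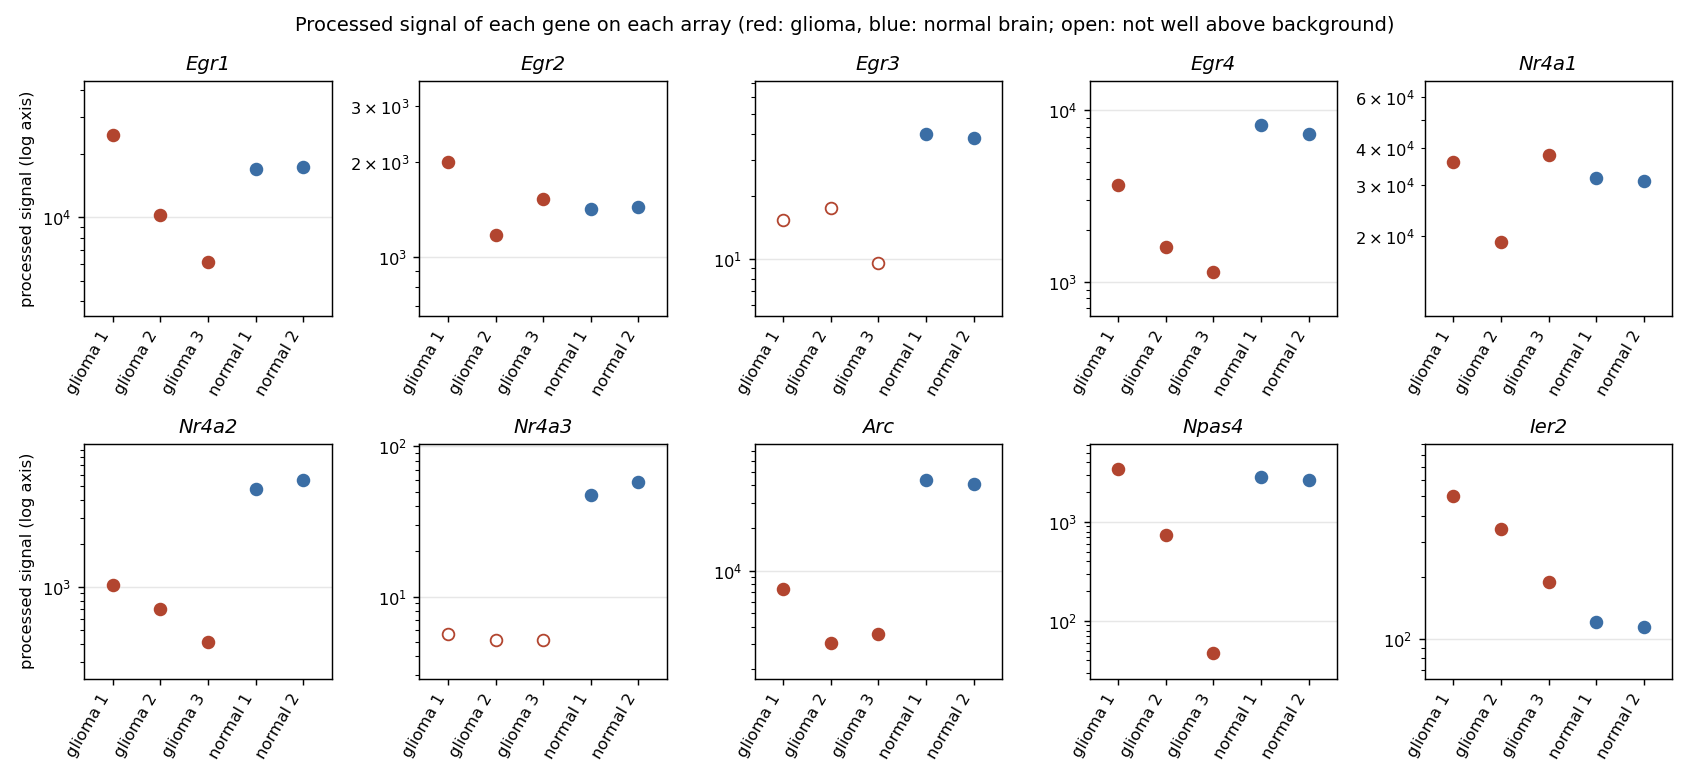
Processed signal of each of the 10 genes on each array, on a log axis that differs between panels. Red points are the 3 gliomas, blue points the 2 normal brain samples, and open points were not well above background. The 2 normal brain points lie together in every panel, and the red points of Npas4 run from 3424 to 47.1.

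Egr1 to Egr4 are zinc finger transcription factors that bind the same GC-rich element, and they fell into a lower and an overlapping pair. Egr4, a factor with strong expression in brain, had a processed signal of 3658, 1601 and 1140 in gliomas 1 to 3 and of 8227 and 7316 in the normal brain samples. Every glioma lay below both normal brain samples, with glioma 1 the nearest to them. Egr4 fell by 2.40 on the log2 scale (SE 0.52, adjusted p = 0.0150 by limma), a 5.28-fold difference. This call rests on having both normal samples, since without normal brain 1 the change was -2.30 with an adjusted p of 0.0794, and without normal brain 2 it was -2.50 with 0.0652.

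Egr3, a factor that acts downstream of neuronal activity and in muscle spindles, was dim on every array. Its signal was 39.9 and 38.3 in normal brain, where it was well above background, and 15.3, 17.6 and 9.58 in the gliomas, where it was not. The gliomas thus give only a bound. For such genes each glioma array took the higher of the gene's own signal and the dimmest signal counted as well above background there. By that bound on the processed signal, Egr3 was at least 2.94-fold lower in glioma. With normexp its fitted log2 change was only -0.66, so the bound holds for the processed signal alone. Egr3 entered the test only because the normal brain arrays detected it. Its adjusted p of 0.00262 by limma, fitted on glioma values at background, is therefore no support for the difference.

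Egr1, the best known of the family and a common marker of active neurons, had a signal of 24620, 10231 and 6147 in gliomas 1 to 3 against 17034 and 17382 in normal brain. Glioma 1 was above both normal brain samples and the other gliomas were below them, so the groups overlapped. The fitted log2 change was -0.93 (SE 0.59, adjusted p = 0.241 by limma), with a 95% interval from -2.44 to 0.58. Without glioma 1 it was -1.50 (SE 0.20, adjusted p = 0.0085), and without glioma 3 it was -0.53 with an adjusted p of 0.458. Egr1 is thus called lower only with glioma 1 left out, among the 5 arrays left out in turn.

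Egr2, which also directs myelination by Schwann cells, had a signal of 2003, 1169 and 1519 in the gliomas and of 1419 and 1440 in normal brain. The normal brain values lay inside the range of the gliomas. Its log2 change was -0.26 (SE 0.32, adjusted p = 0.518 by limma), with a 95% interval from -1.07 to 0.54. Its direction is not settled, since the unscaled signals gave 0.09.

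The 3 Nr4a genes encode orphan nuclear receptors that bind DNA without a known natural hormone. Nr4a2, also called Nurr1 and needed for midbrain dopamine neurons, had a signal of 1023, 706 and 414 in gliomas 1 to 3 and of 4792 and 5507 in normal brain. The groups were far apart, with every glioma far below either normal sample. Nr4a2 fell by 3.30 on the log2 scale (SE 0.38, adjusted p = 0.00197 by limma), a 9.84-fold difference. The other Nr4a2 probe gave -3.12 (SE 0.29), with an adjusted p of 0.00155 in a limma fit over all detected probes, so both probes moved alike.

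Nr4a3, also called Nor-1, is printed 10 times on each array, which gives its dim signal more readings than a single spot. Its mean signal was 47.3 and 57.8 in normal brain and 5.67, 5.17 and 5.12 in the gliomas, none of which was well above background. The 19 unflagged spots of the normal brain arrays read between 37.8 and 66.6, with a median of 53.6. The 29 unflagged glioma spots read between 3.35 and 11.8, with a median of 4.86. All lay below the dimmest signal counted as well above background on the glioma arrays, which was between 15.6 and 17.7. Spots of the same probe on the same array are repeated technical readings and not separate samples. The gap between the spots therefore adds no replicates to the comparison, and the glioma level itself was not measured. By the bound on the processed signal, Nr4a3 was at least 4.09-fold lower in glioma. With normexp its fitted log2 change was only -1.09, so the bound holds for the processed signal alone. Like Egr3, Nr4a3 was tested only through its detection in normal brain, and its adjusted p of 0.000389 by limma is given with that limit.

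Nr4a1, also called Nur77 and induced by many stimuli in neurons, lymphocytes and macrophages, differed from its relatives in where the gliomas lay. Its signal was 35787, 19069 and 37829 in gliomas 1 to 3 and 31646 and 30759 in normal brain. Gliomas 1 and 3 were above both normal samples in raw signal and glioma 2 was below them. After scaling, its log2 level was 5.30, 4.18 and 5.45 in the gliomas and 5.45 and 5.37 in normal brain, so gliomas 1 and 3 lay close to normal brain and glioma 2 alone stood well below. The log2 change was -0.44 (SE 0.42, adjusted p = 0.421 by limma), with a 95% interval from -1.50 to 0.63. No test was made between Nr4a1 and the other Nr4a genes.

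Arc, a protein of active synapses that drives removal of AMPA receptors from the membrane, had a signal of 43865 and 40807 in normal brain and of 7403, 3094 and 3582 in gliomas 1 to 3. Even the highest glioma, glioma 1, was far below both normal samples. Arc fell by 3.64 on the log2 scale (SE 0.45, adjusted p = 0.00242 by limma), a 12.5-fold difference and the largest among those of the 10 genes that were detected on all 5 arrays.

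Npas4 is a transcription factor induced almost only by calcium entry in neurons, where it adjusts inhibitory synapses. Its signal was 3424, 732 and 47.1 in gliomas 1 to 3, against 2835 and 2648 in normal brain. Relative to the scaled normal brain mean, glioma 1 was 1.01-fold of it, glioma 2 was 5.38-fold below and glioma 3 was 68.6-fold below. The gliomas thus covered a 69.4-fold range, and only 2 of the 14854 genes detected on all arrays had a larger one. The log2 change of -2.84 had an SE of 1.76 and an adjusted p of 0.231 by limma, and its 95% interval ran from -7.34 to 1.67, so the fit does not settle a group difference. The size rests on single gliomas: it was -4.26 without glioma 1 and -1.21 without glioma 3 (adjusted p = 0.0629 and 0.316 by limma).

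Ier2, a small nuclear protein induced by growth factors in most cell types, was the 1 gene of the 10 whose gliomas all lay above normal brain. Its signal was 504, 344 and 190 in gliomas 1 to 3 and 121 and 115 in normal brain. The log2 change of 1.09 (SE 0.40) had an adjusted p of 0.0748 by limma and did not pass, with a 95% interval from 0.05 to 2.12. Without glioma 3 it was 1.41 with an adjusted p of 0.0245, and without glioma 1 it was 0.74 with 0.0715.

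**Figure D2:**
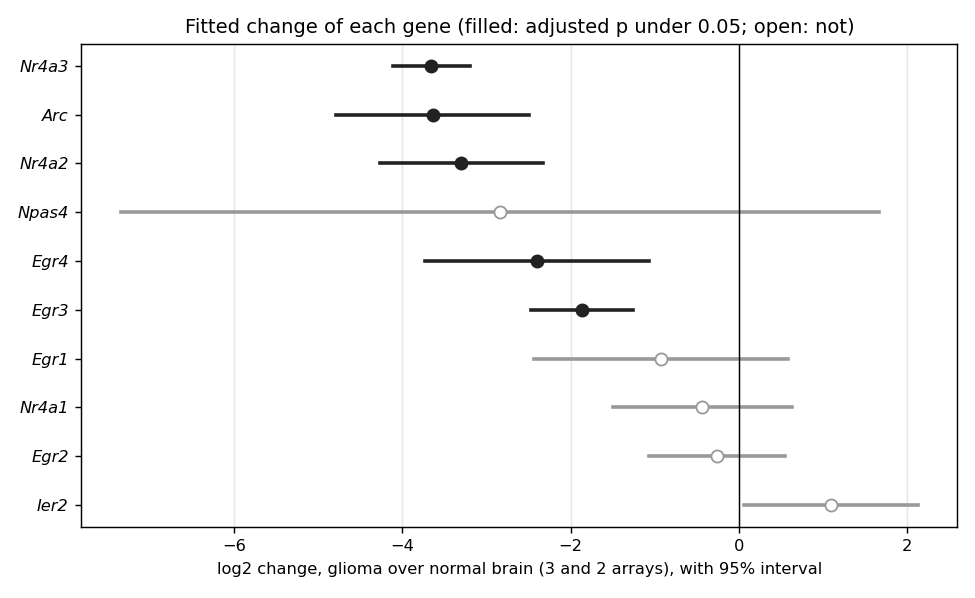
Log2 change of each gene in glioma over normal brain, from the fit over 3 and 2 arrays, with bars for the 95% interval. Filled points had an adjusted p under 0.05 by limma and open points did not. Nr4a3, Arc, Nr4a2, Egr4 and Egr3 are filled, and the bar of Npas4 runs from -7.34 to 1.67. No glioma detected Nr4a3 or Egr3, so their points and bars rest on glioma values at background and lend no support.

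The gliomas differed from each other far more than the normal brain samples did. The same held over all genes detected on all arrays, where r was 0.996 between the normal brain samples and 0.974 to 0.982 between gliomas. A range over 3 arrays also tends to be wider than a difference between 2. Between the 2 normal samples, each of the 10 genes differed by 1.01-fold to 1.19-fold. Among the 8 genes detected on all arrays, the median range over the 3 gliomas was 1.41 on the log2 scale, against 0.46 over all 14854 genes detected on all arrays. By gene the highest glioma was 1.99-fold above the lowest for Egr2, 2.42-fold for Nr4a1, 2.53-fold for Ier2, 2.78-fold for Arc, 3.06-fold for Egr4 and 3.82-fold for Egr1.

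Glioma 1 was the highest of the 3 gliomas for 7 of these 8 genes, all but Nr4a1, which was highest in glioma 3. Over all genes detected on all arrays, glioma 1 was the highest for 38.4%. Egr1, Egr4, Nr4a2, Npas4 and Ier2 shared 1 order, with glioma 1 highest and glioma 3 lowest, an order held by 22.8% of all such genes. For Arc, Egr2 and Nr4a1 glioma 2 was the lowest. The order is thus shared by called and uncalled genes, and by Ier2, whose glioma values were above normal brain, as well as by genes below it.

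Differences (log2) of each glioma from the normal brain mean varied in pattern among both the called genes and the others. For Arc they were -2.82, -4.30 and -3.80 in gliomas 1 to 3, and for Nr4a2 they were -2.64, -3.39 and -3.87. In these 2 genes the gap to normal brain was wider than the spread among gliomas. For Egr4, also called, they were -1.39, -2.80 and -3.01, so the smallest gap was narrower than the glioma range of 1.62. For Egr1 the differences were 0.21, -1.27 and -1.72, and for Npas4 they were 0.02, -2.43 and -6.10. In Egr1 and Npas4 glioma 1 lay at the level of normal brain and the other gliomas below it. Among the other uncalled genes, Egr2 was at 0.18, -0.82 and -0.15 and Nr4a1 at -0.11, -1.235 and 0.04. Ier2 was above normal brain in every glioma, at 1.79, 1.02 and 0.45.

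**Figure D3:**
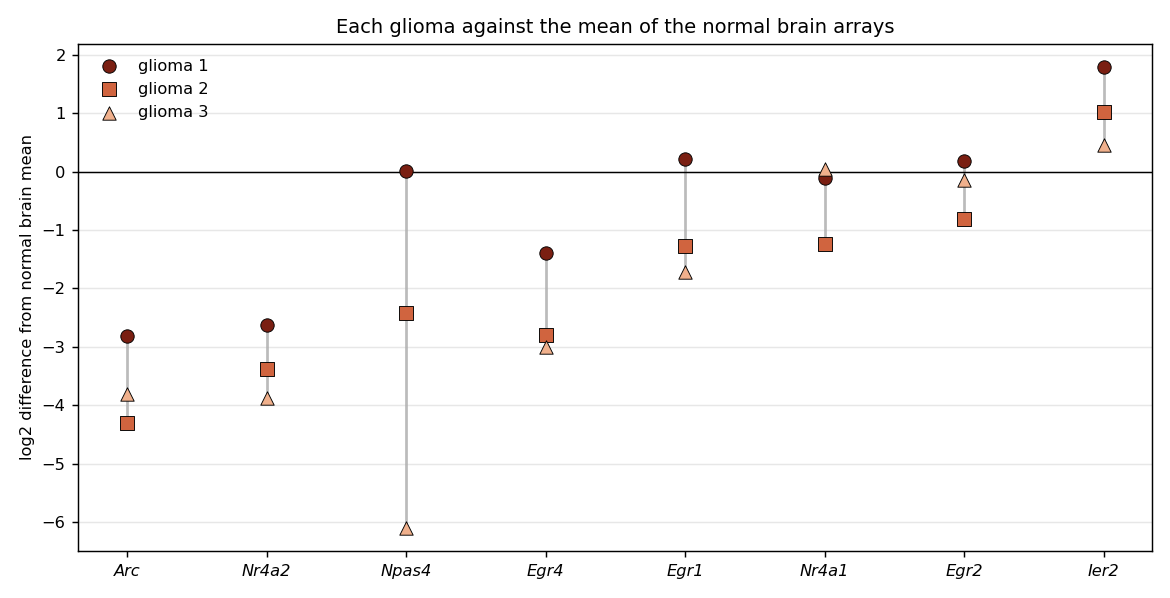
Log2 difference of each glioma from the mean of the 2 normal brain arrays, for the 8 genes detected on all arrays; circles are glioma 1, squares glioma 2 and triangles glioma 3, and the grey line joins the gliomas of a gene. The circle is the top point for all genes but Nr4a1, and for Npas4 the points run from 0.02 to -6.10.

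With glioma 1 left out, 6 of the 10 genes were called lower, Egr1 beside Arc, Nr4a2, Nr4a3, Egr4 and Egr3, against 27.5% of all genes in that fit. The groups then did not overlap for 9 of the 10 genes, all but Nr4a1, against 81.1% of all genes. Both counts hold Nr4a3 and Egr3, which no glioma detected, so those genes lend them no support. Npas4 still did not pass. Without glioma 3, 5 of the 10 genes were lower, Nr4a3 and Egr3 again among them, and 1, Ier2, was higher. In that fit 4989 of all 16884 genes were lower and 4333 were higher.

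Neuron markers fell in the same gliomas. All 15 passed the test, and none was at background on any array. Their mean log2 level was 1.77, 1.00 and 1.43 in gliomas 1 to 3 against 4.93 and 4.91 in normal brain, and their median change was -3.27. Among the defining markers, Slc17a6, a vesicular glutamate transporter, fell by 5.97 (SE 0.42) and the neurofilament gene Nefl fell by 4.67 (SE 0.33), both on the log2 scale. In such bulk RNA, fewer neurons and less RNA of these genes per neuron cannot be told apart, and the part of neuron content in the results was not tested.

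The mean of the neuron markers was highest in glioma 1 and lowest in glioma 2, which is also the order of Arc and Egr2. Egr1, Egr4, Nr4a2 and Npas4 were named together above because they share another order, with glioma 3 lowest. Glioma 1 was highest for 12 of 15 neuron markers (38.4% of all genes detected on all arrays). Glioma 2 was lowest for 11 of 15 (32.8% of all such genes). In 3 of 15 glioma 1 was highest and glioma 3 lowest (22.8% of all such genes). The mean log2 level of the 10 genes was 0.43, -0.65 and -0.98 in gliomas 1 to 3 and 1.44 and 1.40 in normal brain. Glioma 3 lay below glioma 2 in this mean through Npas4, since the other 9 genes averaged 0.26, -0.67 and -0.62. Gliomas 2 and 3 were then nearly level. Of those genes, Egr1, Egr4, Nr4a2 and Ier2 were lowest in glioma 3, and Arc, Egr2 and Nr4a1 in glioma 2. Egr3 and Nr4a3, also among them, were not well above background in any glioma. Markers of cortical and hippocampal neurons, the region where Arc, Egr1 and Npas4 are best studied, were called lower for 8 of 9 and higher for none, with a median of -3.04. Glioma 1 was highest for 6 of these 9 and glioma 2 was lowest for 5, against 38.4% and 32.8% of all genes detected on all arrays. Neurod6, a factor of excitatory cortical neurons, was at -0.66, -3.21 and -3.13 in gliomas 1 to 3, while Lamp5, of upper-layer neurons, was at -2.02, -2.31 and -1.86. Striatal neuron markers were called lower for 8 of 8, with a median of -2.57.

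Cell types other than neurons that can express these genes also differed between the groups. Microglia and macrophage markers were higher for 8 of 12 and lower for none, and glioma 2 was the highest glioma for 12 of 12. Oligodendrocyte progenitor markers were at mean log2 levels of 4.35, 4.46 and 4.52 in the gliomas and 1.36 and 1.33 in normal brain. Endothelial markers were lower for 8 of 9, mural and fibroblast markers for 7 of 8, oligodendrocyte markers for 7 of 9 and astrocyte markers for 4 of 9, with none of these lists having a marker called higher. Red blood cell markers were lower for 3 of the 4 tested. For scale, 27.8% of all genes tested were lower and 23.7% higher. The part of these cell types in the values of the 10 genes was not tested.

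The other genes of the rapid response did not move in 1 direction. Of 35 tested genes that are induced within minutes to hours in many cell types, 12 were higher and 10 were lower, and the median was 0.14. Over all genes tested, 23.7% were higher and 27.8% lower. Maff, a small Maf factor, rose by 2.96 (SE 0.28), Ier3, a stress-induced survival gene, rose by 2.61 (SE 0.25), and Zfp36l1, which promotes decay of mRNA, rose by 2.34 (SE 0.17). Sik1, a kinase that restrains CREB co-activators, fell by 2.60 (SE 0.40), and Klf2, a zinc finger factor best known in endothelium, fell by 1.87 (SE 0.15), all on the log2 scale. The list as a whole did not share the order of the gliomas, since 6 of 35 had glioma 1 highest and glioma 3 lowest.

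Of 9 AP-1 subunits, only some of which are induced alongside Egr1, 2 were higher (Batf at 4.52 and Jun at 1.37). Another 2 were lower (Fosb at -2.71 and Fosl2 at -2.06), and these counts are near the shares over all genes (23.7% higher, 27.8% lower). Fos itself had a log2 change of -0.33 and did not pass, and glioma 1 was highest and glioma 3 lowest for 4 of the 8 subunits detected on all arrays.

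Genes that neurons induce later, many of them secreted or synaptic, were mostly lower. Of 23 tested, 15 were lower and 2 higher, against 27.8% and 23.7% of all genes, with a median of -2.51. Pcsk1, a protease that matures neuropeptides, fell by 5.22 (SE 0.16), Rgs4, which limits G protein signals, fell by 4.01 (SE 0.31), and the peptide gene Sst fell by 3.71 (SE 0.33) on the log2 scale. The 2 that were higher, Spry2 at 2.63 (SE 0.14) and Dusp6 at 2.43 (SE 0.28), are feedback inhibitors of the ERK pathway that growth factors also induce. All 15 neuron markers were lower in the same gliomas, and their part in the change of this list was not tested.

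**Figure D4:**
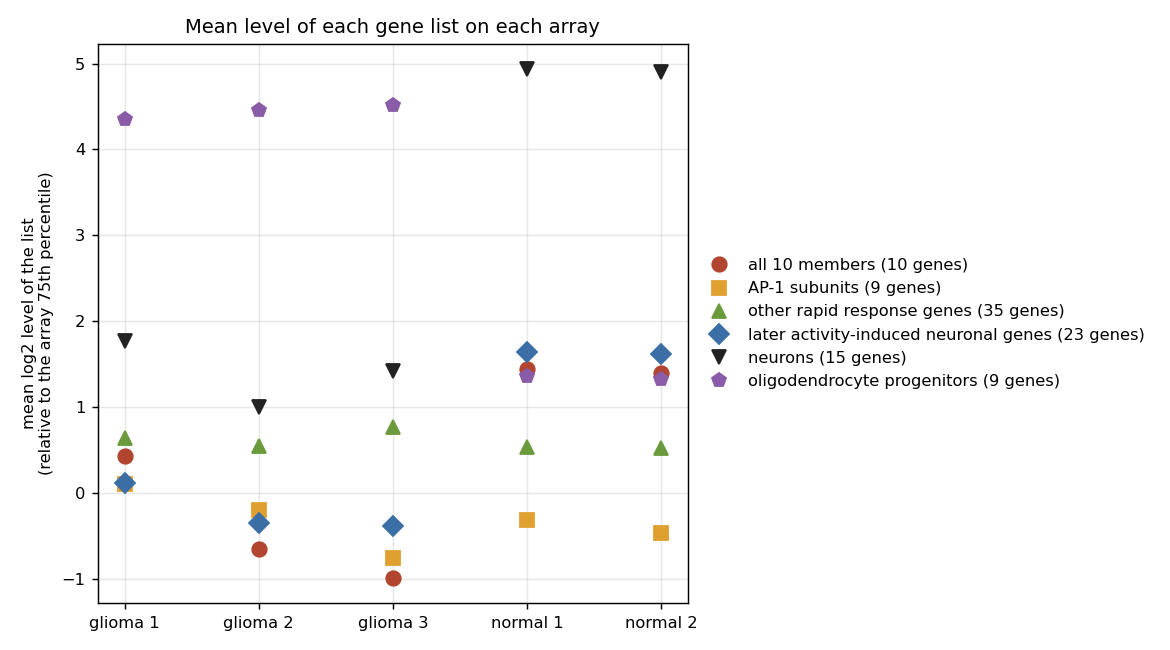
Mean log2 level of each gene list on each array, relative to the array's 75th percentile. Red circles are the 10 genes, at 0.43, -0.65 and -0.98 in the gliomas and 1.44 and 1.40 in normal brain. Neuron markers (black) are lowest in glioma 2. The red circles are lowest in glioma 3, but without Npas4 the other 9 genes average -0.67 in glioma 2 and -0.62 in glioma 3.

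The kinases and factors that switch these genes on were lower for 12 and higher for 3 of 27, with a median of -0.45. The shares over all genes were 27.8% lower and 23.7% higher. Camk4, a calcium-dependent kinase of neuronal nuclei that phosphorylates CREB, fell by 3.11 (SE 0.24), Mef2c, a MEF2 factor, fell by 2.43 (SE 0.23), and Mrtfb, a co-activator of SRF, fell by 2.32 (SE 0.19). Elk3, an SRF partner, rose by 2.81 (SE 0.36), and Atf1, a relative of CREB, rose by 1.03 (SE 0.14). Srf at -0.44 and Creb1 at 0.25 did not pass.

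Among 16 partners of the 10 proteins, 7 were lower and 2 were higher, against 27.8% and 23.7% of all genes, with a median of -0.23. The largest falls were in genes of synaptic proteins, while Dnm2 at 0.34 and Sh3gl3 at -0.25, in the same list, did not pass. All 15 neuron markers were lower in the same gliomas, and their part in these falls was not tested. Cacng2, an auxiliary subunit of AMPA receptors that Arc binds, fell by 3.96 (SE 0.20), Camk2a fell by 3.78 (SE 0.18), and the scaffold gene Dlg4 fell by 2.68 (SE 0.17). Nab1, a co-repressor of Egr factors, rose by 0.90 (SE 0.15), and Rxra, a nuclear receptor that pairs with Nr4a1 and Nr4a2, rose by 0.68 (SE 0.21).

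To describe the patterns without regard to level, each gene was centred on its own mean over the 5 arrays, and genes were compared by the root-mean-square difference of log2 values. The 5 genes nearest to the mean profile of the 8 genes detected on all arrays were Wfdc2 (0.12), Cd55 (0.16), Upb1 (0.18), Saysd1 (0.19) and Hspb2 (0.19), out of 14854 genes. That mean profile includes Npas4, whose level of -4.20 in glioma 3 pulls it down there, and a profile without Npas4 was not compared. The nearest single gene was Mras for Egr1 (0.15), A2ml1 for Egr4 (0.11), Izumo1r for Egr2 (0.036), Dbpht2 for Nr4a1 (0.11), Mrap2 for Arc (0.099) and Ppp2r1b for Ier2 (0.064). For Nr4a2 it was Fezf2 (0.093), a factor of deep-layer cortical neurons that is also in the cortical marker list. Npas4 had no close neighbour, since its nearest gene, Cfap126, was 1.11 away. Among the 28 pairs of these 8 genes, Egr2 and Nr4a1 were the nearest pair at 0.22, followed by Arc and Nr4a2 at 0.38, and Ier2 and Npas4 were the farthest apart at 2.46.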

How the data were processed

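Total RNA of 3 gliomas and 2 normal brain samples was labelled with Cy3 and hybridised, per the labels' protocols. The scanner files hold intensity values and 0 or 1 flags of each spot, which the authors made with Agilent Feature Extraction. Its version was 10.7.3.1 by the submitters' processing notes, and background was subtracted, per the file headers. A deposited matrix of log2 values equalled the log2 of the processed signal.

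Control spots and 23 probes with outlier flags on all spots of an array were left out, and repeated spots were averaged. Each level is log2 of the processed signal less the same array's log2 75th percentile. Of 29796 probes with a RefSeq accession, 28020 were named, giving 21150 genes. A gene was its brightest probe, tested if well above background on at least 2 arrays. The test was limma's moderated linear model (lmFit, then eBayes; limma 3.58.1, R 4.3.3), two-sided, and an adjusted p under 0.05 was a call. Version 1.17.8 of data.table, Python 3.11.15 and matplotlib 3.10.9 made tables and figures. The script was first tested on simulated data.

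The 10 genes and the 16 other lists were chosen with earlier results of these data known. Of 213 list entries, 210 were tested, 2 were not detected and 1 was not matched. Named were all 10 genes, and from each list up to 3 called genes that moved as most of it did and 2 that moved the other way. Fos, Srf, Creb1, Ddx3y, Dnm2 and Sh3gl3 were named after their values were seen.

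The 14 alternatives changed background correction, scaling, filter, probe choice or fit, or left out 1 array. Background correction by normexp used the median signal of the spots, in place of a mean signal. A slide block was not run, because all arrays share 1 slide.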

Additional observations from a re-analysis of the deposited data

How the results depend on the processing

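Under the 14 alternatives, Nr4a2 and Arc were called lower in all, and so were Egr3 and Nr4a3 in the 13 that tested them, though no glioma detected either. Requiring detection on all arrays left those dim genes out and gave 3 of 8 genes called lower. With normexp the median of the 10 genes was -0.996, and the changes of Egr3 and Nr4a3 shrank to -0.66 and -1.09. With the authors' unscaled log2 values, 1 of the 10 genes was called higher, Ier2 at 1.45 (adjusted p = 0.0356 by limma). The median of all genes was then 0.31, and 5599 genes were called higher and 3182 lower, against 3994 and 4690. Leaving out 1 array at a time gave 1973 to 4333 genes higher and 2624 to 4989 lower, 0 to 1 of the 10 genes higher, 4 to 6 lower, 6 to 9 without overlap and a median of -2.44 to -1.44. Samples with the same replicate number did not deviate together (r of 0.013 and 0.049). The deviations of the 2 normal brain arrays are mirror images of each other, so this check cannot exclude a pairing, which the labels do not state. A replicate block takes glioma 3, which has no partner of the same number, out of the estimates. With it 3785 genes were higher and 4475 lower, and of the 10 genes 5 were lower and 1 higher, Ier2 at 1.41 (adjusted p = 0.0204), the same estimate as without glioma 3. The mean over 9 genes without Npas4 was chosen after seeing the data. Egr2 changed sign in 2 alternatives and was called in none. Dim signal limits Egr3 and Nr4a3 to bounds, and these hold only for the processed signal, not for normexp.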
